A study of Mus musculus with 4 samples.

Results

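The keratins described here are 9 genes, the basal keratins Krt5, Krt14, Krt15 and Krt17 and the luminal and other keratins Krt8, Krt18, Krt19, Krt7 and Krt4. They were chosen by name, with earlier results of these data known, and all 9 were found among the 56748 genes of the count table. The 4 libraries are bulk RNA-seq of cells cultured from the prostate of male C57BL/6 mice of 8 to 10 weeks, with 1 library for each condition: PBS, BuOE, PBS and radiation, and BuOE and radiation. PBS is phosphate-buffered saline, and BuOE is the label of the compound arm in a series whose title names BMX-001, a radioprotector. The irradiated mice received 37.5 Gy to the pelvis under lead shielding, in fractions of 7.5 Gy over 5 days. Minced organs were treated with collagenase, and the freed cells were cultured in serum before RNA was taken. The labels call the cells fibroblasts and give no sorting step, no dose or timing of BuOE and no number of mice behind a library. The design text speaks of treatments in mice, but the protocols do not describe how BuOE was given, so whether mice or cultures received it is uncertain.

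Keratins are the intermediate filament proteins of epithelial cells, and each filament is built from heterodimers of an acidic type I chain and a basic type II chain. In the prostate, basal cells, which rest on the basement membrane, carry Krt5 (type II) and Krt14 (type I), and the secretory luminal cells above them carry Krt8 (type II) and Krt18 (type I). Fibroblasts use vimentin for their intermediate filaments.

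All 4 libraries held keratin transcripts. The deposited counts summed to between 24996835 and 35915448 reads per library, and the 9 genes took between 0.276% and 0.456% of them. Mitochondrially encoded genes took 0.413% with PBS, 0.746% with BuOE, 0.883% with PBS and radiation and 2.65% with BuOE and radiation, and the counts of keratins changed 2-fold were the same with these genes removed. Epcam, a surface protein of epithelial cells, lay between 290.4 and 485 CPM (read counts relative to library size, scaled between libraries with TMM factors), and Cdh1, the epithelial cadherin, between 543 and 811 CPM. Fibroblast genes were abundant too. The levels of 15 such markers added up to 7711 CPM with PBS, 6847 with BuOE, 10436 with PBS and radiation and 5939 with BuOE and radiation, and Vim, which encodes vimentin, stood at 2551, 1545, 2073 and 1501 CPM. In bulk RNA, fewer cells of a type and less RNA per cell cannot be told apart, so a keratin level here is a property of the whole culture. With 1 library per condition, no difference between 2 libraries has a replicate check. Each ratio is a log2 ratio of scaled CPM that compares 2 libraries and not 2 conditions, followed in parentheses by the lower and upper bound of its 95% interval. That interval holds counting error and nothing else.

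Krt5 and Krt14 form the keratin pair of basal cells. Krt5 stood at 262 CPM with PBS, 388 with BuOE, 115 with PBS and radiation and 278 with BuOE and radiation. Krt14 was at 237, 385, 129 and 222 CPM in the same order of libraries. For both genes the BuOE library was the highest and the irradiated PBS library the lowest, and the highest exceeded the lowest 3.38-fold for Krt5 and 2.98-fold for Krt14.

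Krt15 is a type I keratin of basal cells that is often found in progenitor compartments, and Krt17 is a type I keratin that basal cells also induce after injury. Krt15 was at 54.6 CPM with PBS, 187 with BuOE, 53.9 with PBS and radiation and 155 with BuOE and radiation. Its levels fell into a low pair, the 2 PBS libraries, and a high pair, the 2 BuOE libraries. Krt17 was at 189, 336, 139.9 and 402 CPM in the same order of libraries. It was the only one of the 4 basal keratins with its highest level in the irradiated BuOE library.

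Krt8 and Krt18 are the keratin pair of simple and luminal epithelia. Krt8 was the steadiest of the 9 genes, at 934 CPM with PBS, 1050.3 with BuOE, 789 with PBS and radiation and 868 with BuOE and radiation, a 1.33-fold span. Krt18 was at 558, 772, 728 and 1115 CPM, a 2.00-fold span, with the PBS library lowest and the irradiated BuOE library highest. Krt8 did not share that order: its highest library was BuOE, and both of its irradiated libraries lay below both unirradiated ones.

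Krt19 is a type I keratin of simple epithelia, Krt7 a type II keratin of ducts and urothelium, and Krt4 a type II keratin of stratified mucosal epithelia. Krt19 stood at 886 CPM with PBS, 771 with BuOE, 528 with PBS and radiation and 595 with BuOE and radiation, so both irradiated libraries were below both unirradiated ones. Krt7 stood at 244, 427, 285 and 616 CPM, with both BuOE libraries above both PBS libraries. Krt4 was rare, at 9.77, 19.9, 14.0 and 23.2 CPM, in the same order of libraries as Krt7.

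**Figure D1:**
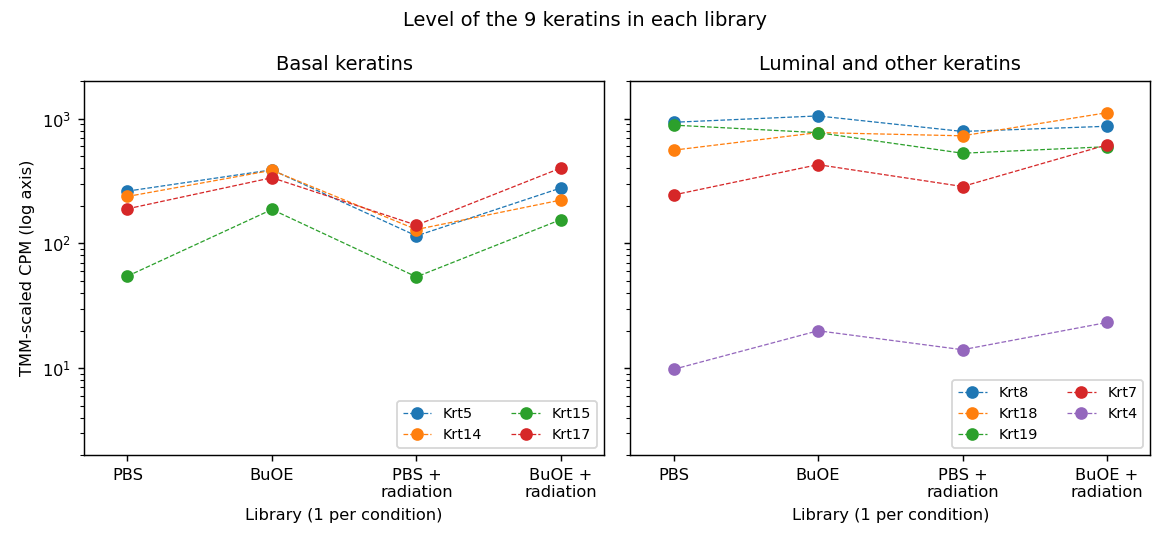
TMM-scaled CPM (log axis) of the 4 basal keratins (left) and the 5 luminal and other keratins (right) in the 4 libraries. Each point is 1 library, and the dashed lines only join points of a gene. All 4 basal keratins are lowest in the irradiated PBS library (53.9 to 139.9 CPM), Krt15 by less than its counting error, while Krt8 stays between 789 and 1050.3 CPM.

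Levels of different genes were compared as scaled CPM per kilobase of the longest protein-coding transcript. On that scale Krt18 (388 to 776 over the 4 libraries), Krt8 (403 to 536) and Krt19 (335 to 562) formed the upper group, and their ranges overlapped. Krt17 (90.2 to 259), Krt14 (76.0 to 227), Krt5 (52.2 to 177), Krt7 (59.6 to 151) and Krt15 (31.7 to 109.9) followed, each overlapping its neighbour in the order. Krt4 (4.58 to 10.9) lay below all others without overlap. The place of Krt7 depends on its transcript model, which is 4094 bases long here and 7049 bases when all its annotated exons are merged.

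Reads can also move between genes of similar sequence. Of all windows of 50 bases in the transcript, 29.7% were shared with another gene for Krt8, most of them with the pseudogene Krt8-ps, 14.4% for Krt14, mostly with Krt16, 12.2% for Krt5, mostly with Krt6a, and 3.99% for Krt17. For Krt15, Krt18, Krt19, Krt7 and Krt4 the share was at most 0.72%. Krt8-ps itself was given between 34 and 64 reads per library, against 21085 to 31842 for Krt8. The sources used here do not give how reads with several matches were counted, so the levels of Krt8, Krt14 and Krt5 are less certain than the others.

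RefSeq windows around the annotated transcript start were held for 5 of the 9 genes (build GRCm38.p6, whereas the submitters' processing notes name GRCm39 for the counts). The window of Krt14 belongs to a start 1480 bases inside the gene and is not shown. The bases before the start are shown for the basal gene Krt5 and for Krt8, Krt18 and Krt7, which cover the steadiest (Krt8) and the most variable (Krt7) of the luminal group. All 4 genes lie on chromosome 15, at chr15:101712906-101713155 (minus strand) for Krt5, chr15:102004343-102004592 (minus strand) for Krt8, chr15:102027966-102028215 (plus strand) for Krt18 and chr15:101412153-101412402 (plus strand) for Krt7. Each is 250 bases long, written 5′ to 3′ on the gene's strand and ending at the base before the start. The letters ATAAAA, a variant of the TATA motif TATAAA, are in capitals, which do not mark a working TATA element.
Krt5: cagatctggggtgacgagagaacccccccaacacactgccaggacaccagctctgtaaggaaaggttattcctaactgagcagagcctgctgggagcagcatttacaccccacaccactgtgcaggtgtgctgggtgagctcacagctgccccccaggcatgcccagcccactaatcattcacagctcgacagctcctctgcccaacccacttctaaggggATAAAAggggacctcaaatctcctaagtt
Krt8: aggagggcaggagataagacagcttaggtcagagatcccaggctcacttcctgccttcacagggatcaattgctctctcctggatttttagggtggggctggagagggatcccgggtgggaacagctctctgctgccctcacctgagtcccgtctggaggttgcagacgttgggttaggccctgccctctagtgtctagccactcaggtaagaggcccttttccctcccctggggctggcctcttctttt
Krt18: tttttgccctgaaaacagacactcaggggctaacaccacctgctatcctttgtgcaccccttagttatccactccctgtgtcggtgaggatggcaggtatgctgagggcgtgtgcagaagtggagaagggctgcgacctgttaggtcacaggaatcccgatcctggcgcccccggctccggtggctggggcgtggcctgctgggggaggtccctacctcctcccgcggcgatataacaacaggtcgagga
Krt7: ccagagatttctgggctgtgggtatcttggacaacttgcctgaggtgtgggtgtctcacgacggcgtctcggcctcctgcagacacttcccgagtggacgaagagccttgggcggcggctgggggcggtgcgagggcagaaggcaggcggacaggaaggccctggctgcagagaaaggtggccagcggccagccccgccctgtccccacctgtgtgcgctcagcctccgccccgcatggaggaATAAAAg
The motifs searched were TATAAA and, as a form that may overlap with it, ATAAAA, further TGANTCA, which AP-1 binds, and GGGCGG, which Sp1 binds. Both strands were read, from 250 bases before to 50 bases after the start. ATAAAA began 29 bases before the start of Krt5 and 7 bases before that of Krt7, while 2.77% of 32544 RefSeq windows hold it on the gene's strand within the last 50 bases before the start. TATAAA in the gene's direction began 1 base before the start of Krt8 and so runs past the end of the bases shown. On the gene's strand, 2.72% of all windows have it beginning in the last 50 bases before the start. Anywhere on either strand, 13.6% hold it. Read on the other strand, Krt8 also held TATAAA and ATAAAA, 3 and 4 bases before the start. GGGCGG was found 4 times in Krt7 and in 35.9% of all windows. TGANTCA was in none of these 4 windows and in 7.79% of all. The share of G and C was 56.0% for Krt5, 58.0% for Krt8, 60.4% for Krt18 and 66.0% for Krt7, against a median of 52.4%. These matches describe the letters and were not tested against the expression values.

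The first comparison sets the irradiated PBS library against the unirradiated PBS library. Here 3 of the 4 basal keratins stood lower after radiation, while the luminal keratins were mixed. Krt5 was the only member at least 2-fold lower (-1.19, -1.25 to -1.14), and none was 2-fold higher. The background is the 14365 genes that averaged 1 CPM or more, all 9 keratins included: 1.02% of them were 2-fold lower or beyond and 5.62% were 2-fold higher or beyond. Krt14 was next (-0.88, -0.93 to -0.83), then Krt19 (-0.75, -0.78 to -0.72) and Krt17 (-0.44, -0.49 to -0.38). These include the 3 members that were at least 1.5-fold lower (Krt5, Krt14 and Krt19), a limit that 3.56% of genes passed. Krt15 had a ratio of -0.02 (-0.12 to 0.08), an interval that includes 0. Krt8 was slightly lower (-0.24, -0.27 to -0.22), whereas Krt18 (0.38, 0.35 to 0.41), Krt7 (0.23, 0.18 to 0.27) and Krt4 (0.52, 0.31 to 0.74) were higher. The median ratio was -0.66 for the 4 basal keratins and 0.23 for the 5 others, against 0.00 for all genes. Summed, basal keratins were at 438 against 743 CPM (-0.76, -0.79 to -0.73) and the others at 2343 against 2632 CPM (-0.17, -0.18 to -0.15).

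Within the compound arm, the irradiated BuOE library was set against the BuOE library. No member was 2-fold changed in either direction, while 2.27% of genes passed 2-fold upward and 4.94% downward. Krt14 had the lowest ratio (-0.79, -0.84 to -0.75) and was the only member at least 1.5-fold lower, as were 11.4% of genes. Krt5 (-0.48, -0.53 to -0.44), Krt19 (-0.37, -0.40 to -0.34), Krt8 (-0.28, -0.30 to -0.25) and Krt15 (-0.27, -0.33 to -0.21) were also lower. Krt17 was higher (0.26, 0.22 to 0.30), as were Krt18 (0.53, 0.50 to 0.55), Krt7 (0.53, 0.49 to 0.56) and Krt4 (0.22, 0.05 to 0.39). The median was -0.38 for the basal keratins and 0.22 for the others, against -0.03 for all genes. The basal sum was lower (-0.29, -0.32 to -0.27), and the sum of the others was slightly higher (0.08, 0.07 to 0.09), a sign that turned with library size as the only scaling (-0.031).

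The radiation ratios of the 2 arms come from separate library pairs. For 8 of the 9 keratins the sign was the same in both arms, and Krt17 was the exception; among all genes 57.7% had the same sign. Krt5, Krt14, Krt8 and Krt19 were lower in both irradiated libraries with intervals that exclude 0, and Krt18, Krt7 and Krt4 were higher in both. The ratio of Krt5 was closer to 0 in the BuOE arm, by 0.71 with a counting SE of 0.04, and that of Krt14 differed by 0.09 (counting SE 0.04). These differences between the arms were not tested, because 1 library per condition leaves no error for an interaction.

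**Figure D2:**
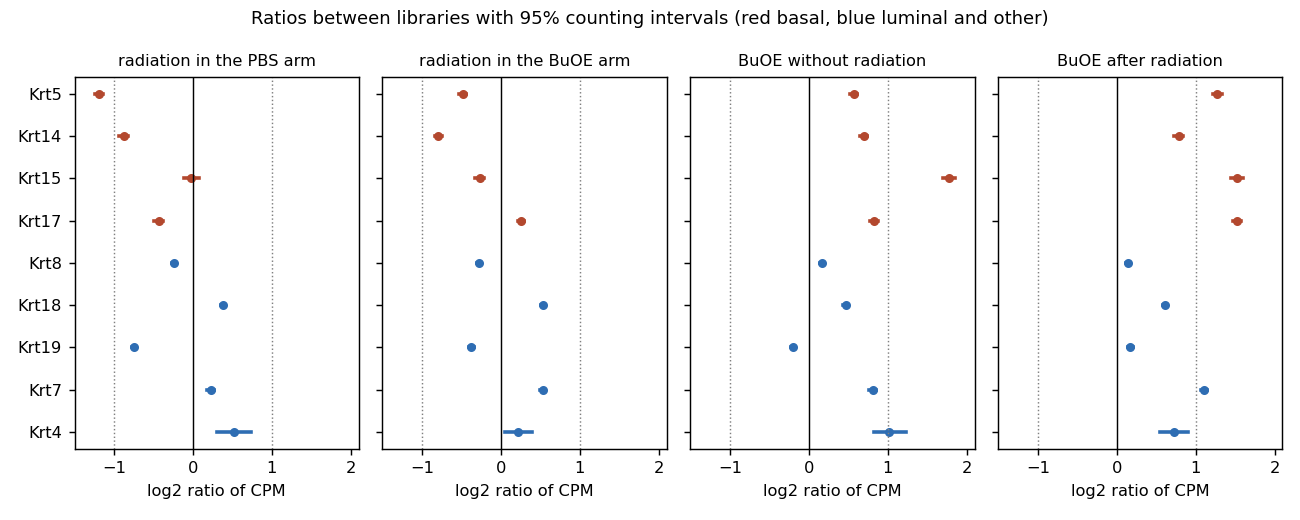
Log2 ratios of scaled CPM of the 9 keratins in the 4 comparisons, basal keratins in red and the others in blue. Points are ratios, bars are 95% counting intervals (narrower than the point for the most abundant genes), and dotted lines mark 2-fold. All 4 basal keratins lie above 0 in both BuOE panels, with Krt15 at 1.77 and 1.52.

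The compound was compared without radiation by setting the BuOE library against the PBS library. All 4 basal keratins were higher in the BuOE library, and Krt15 most of all, 3.42-fold (1.77, 1.69 to 1.86). Krt17 (0.83, 0.78 to 0.88), Krt14 (0.70, 0.65 to 0.74) and Krt5 (0.57, 0.53 to 0.61) stayed below 2-fold. Among the others, Krt4 was 2.03-fold higher (1.02, 0.82 to 1.24), on 604 against 287 reads, and Krt7 (0.81, 0.77 to 0.85) and Krt18 (0.47, 0.44 to 0.50) were also higher. Krt8 differed little (0.17, 0.15 to 0.19), and Krt19 was the only member that was lower (-0.20, -0.23 to -0.17). Thus 2 of 9 members, Krt15 and Krt4, were at least 2-fold higher and none was 2-fold lower, against 8.72% and 4.23% of all genes. At 1.5-fold, 5 members were higher, as were 16% of genes. The summed basal keratins were at 1296 against 743 CPM (0.80, 0.78 to 0.83) and the others at 3041 against 2632 CPM (0.21, 0.19 to 0.22).

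After radiation, the irradiated BuOE library was set against the irradiated PBS library, and all 9 keratins were higher in it. Krt15 (1.52, 1.45 to 1.61), Krt17 (1.52, 1.47 to 1.57), Krt5 (1.28, 1.22 to 1.33) and Krt7 (1.11, 1.07 to 1.15) were at least 2-fold higher. Such ratios were found for 3.81% of all genes, and 5.92% were at least 2-fold lower, with no keratin among them. Krt14 (0.78, 0.73 to 0.84), Krt4 (0.72, 0.55 to 0.90) and Krt18 (0.62, 0.59 to 0.64) raised the count to 7 members at 1.5-fold, a limit passed by 11% of genes. Krt19 (0.17, 0.14 to 0.20) and Krt8 (0.14, 0.11 to 0.16) were the lowest. The median was 1.399 for the basal keratins and 0.62 for the others, against -0.07 for all genes. Summed levels were 1057 against 438 CPM for basal keratins (1.27, 1.24 to 1.30) and 3217 against 2343 CPM for the others (0.46, 0.44 to 0.47). The BuOE ratios without and after radiation share no library. Their sign was the same for 8 of 9 keratins, all but Krt19, and for 67.3% of all genes. Each BuOE comparison does share a library with each radiation comparison. The irradiated PBS library enters both radiation in the PBS arm and BuOE after radiation, so its keratin levels count in both sets of ratios.

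The only test that the labels allow takes radiation and BuOE as additive terms over the 4 libraries, with 1 residual degree of freedom (edgeR's quasi-likelihood test, Benjamini-Hochberg adjustment over 14365 genes). For the radiation term no keratin passed an adjusted p of 0.05 (lowest 0.663), nor did any gene (0%), and 2 of 9 keratins and 1076 genes had an unadjusted p below 0.05. For the BuOE term again no keratin and no gene (0%) passed, while 7 of 9 keratins and 2954 genes had an unadjusted p below 0.05. The lowest adjusted p among the keratins was that of Krt15 (0.0908, log2 change 1.65). Krt7 (adjusted p = 0.121, 0.96), Krt14 (0.121, 0.74), Krt4 (0.128, 0.88), Krt17 (0.129, 1.18), Krt5 (0.165, 0.92) and Krt18 (0.242, 0.54) had an unadjusted p below 0.05, and Krt8 (0.698) and Krt19 (0.977) did not. The call depended on the tool. DESeq2, in the same model, called Krt14 for radiation (adjusted p = 0.00463), as it did 0.78% of 14365 genes. For BuOE, DESeq2 called Krt5, Krt14, Krt15, Krt17, Krt18 and Krt7 (adjusted p of 0.0261 or lower), as it did 6.82% of the 12694 genes tested there. In edgeR without the filter on low counts, Krt15 alone of the 9 passed for BuOE (adjusted p = 0.0315), with 0.89% of genes, and limma-voom called none for either term. Among the 9, DESeq2's adjusted p for BuOE was above 0.05 for Krt8 (0.693), Krt19 (0.976) and Krt4 (0.0728).

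The make-up of the keratins was read within each library, where scaling between libraries plays no part. Basal keratins made up 21.7% of the reads per kilobase of the 9 genes with PBS, 30.3% with BuOE, 15.9% with PBS and radiation and 25.7% with BuOE and radiation. As a share of plain reads the values were 22.0% (95% exact binomial interval 21.8% to 22.3%), 29.9% (29.6% to 30.1%), 15.7% (15.5% to 16.0%) and 24.7% (24.5% to 25.0%). Both irradiated libraries had a lower basal share than their unirradiated partner, and both BuOE libraries a higher one than their PBS partner. Without Krt17 the shares were 16.3%, 23.4%, 10.8% and 16.6%, so that the irradiated BuOE library lay close to the PBS library. Krt18 made up 20.4% of the 9 in the PBS library and 22.3% in the BuOE library, but 32.2% and 32.8% in the irradiated libraries. Krt19 held 29.5% with PBS but 16.0% with BuOE and radiation.

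Partner chains did not keep a fixed ratio. Krt8 over Krt18, per kilobase, was 1.23 with PBS, 0.998 with BuOE, 0.795 with PBS and radiation and 0.571 with BuOE and radiation. The ratio of Krt5 over Krt14 moved less, at 0.853, 0.779, 0.687 and 0.966 in the same order. Krt17 over Krt14, both type I chains of basal cells, was 0.872, 0.955, 1.19 and 1.98. Summed over the 9 genes, type I chains exceeded type II chains in every library, by 1.88, 1.91, 1.96 and 2.24 times per kilobase. As plain reads the ratios were 1.33, 1.30, 1.31 and 1.39. These are ratios of reads and not of protein.

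**Figure D3:**
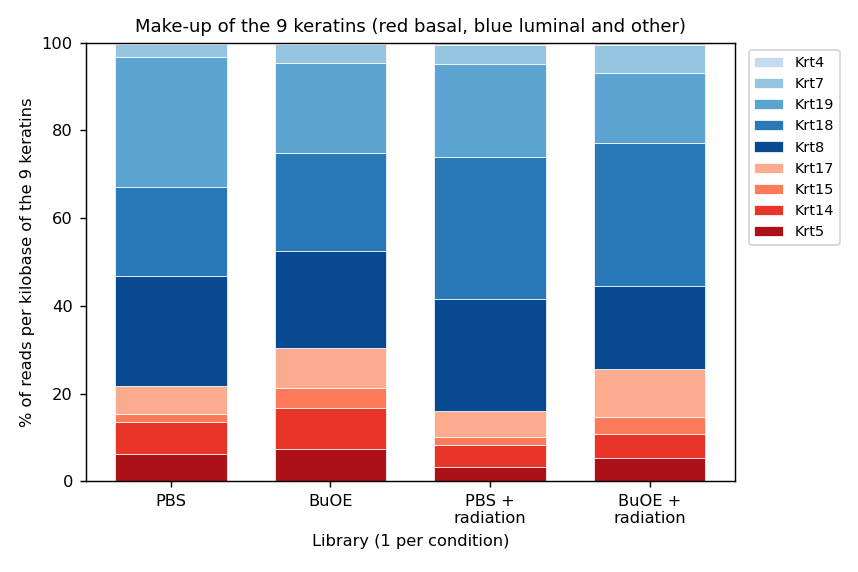
Share of each keratin in the reads per kilobase of the 9 genes (stacked bars, percent), for 1 library per condition, with basal keratins in red at the base and the others in blue. The red part ends at 21.7%, 30.3%, 15.9% and 25.7%, and the Krt18 part is larger in both irradiated libraries.

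The 9 genes took most of the keratin reads, though per kilobase Krt6a (11.9 to 55.7 CPM) stood above Krt4 (4.58 to 10.9 CPM) in every library. The table holds 44 further protein-coding keratin genes, of which 6 had a mean of at least 1 CPM and 13 had no read in any library, and the 9 genes took between 95.3% and 98.2% of all keratin reads. Krt6a, a type II keratin induced in injured and activated epidermis, was the most abundant of the 6, at 127 CPM with PBS, 112 with BuOE, 41.8 with PBS and radiation and 27.2 with BuOE and radiation. It was lower in both irradiated libraries (-1.60, -1.69 to -1.51 in the PBS arm and -2.04, -2.17 to -1.92 in the BuOE arm), but unlike Krt5 it was not higher with BuOE (-0.18 without radiation and -0.62 after it). Of its 50-base windows 62.0% were shared with other genes, so its level is uncertain. Krt16, its type I partner, was at 6.13, 10.95, 4.29 and 4.49 CPM. Krt80 (20.0 to 28.3 CPM), Krt23 (4.50 to 11.1), Krt75 (1.18 to 3.93) and the urothelial keratin Krt20 (0.957 to 2.44) were the other 4.

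The fixed lists of epithelial genes set the keratins beside other genes of epithelial cells. The 18 general epithelial markers summed to 1603 CPM with PBS, 1965 with BuOE, 1357 with PBS and radiation and 2079 with BuOE and radiation, the same order of libraries as the luminal keratins. All 18 were higher in the BuOE library than in the PBS library (median 0.43), from Cdh1 (0.10) to the basal cadherin Cdh3 (1.33), and 17 were higher with BuOE after radiation (median 0.64). Radiation ratios of this list were mixed, with 8 of 18 above 0 in the PBS arm and 12 in the BuOE arm. Of all genes, 50.4% and 46.2% had a radiation ratio above 0 in these arms, and 48.8% and 43.8% a BuOE ratio above 0 without and after radiation. The luminal keratin sum over this epithelial sum lay between 1.55 and 1.73 in the 4 libraries. The basal keratin sum over the same list was 0.464 with PBS, 0.660 with BuOE, 0.322 with PBS and radiation and 0.509 with BuOE and radiation. Cdh1 alone gave 756, 811, 543 and 775 CPM of the epithelial sum in these libraries. Both sets of quotients therefore depend on Cdh1. They were not computed without it, so no order of the libraries is read from them. The part of epithelial content in the keratin ratios was not tested beyond these values.

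The 20 basal epithelial markers other than keratins, which share Cdh3 with the list above, summed to 2662, 4273, 2541 and 3582 CPM in the order PBS, BuOE, irradiated PBS and irradiated BuOE. With BuOE, 19 of 20 were higher without radiation (median 1.00, 10 at least 2-fold) and 17 of 20 after it (median 0.59, 7 at least 2-fold). Among all genes, 8.72% and 3.81% were 2-fold higher or beyond in these comparisons. The most abundant, Cd44, was close to level without radiation (-0.05). Trp63, the transcription factor that marks basal cells, stood at 23.6, 62.9, 29.4 and 40.4 CPM, and the hemidesmosome integrin gene Itgb4 at 186, 426, 177 and 341 CPM. In the PBS arm 10 of the 20 markers had a radiation ratio above 0, with a median of 0.00 and Trp63 at 0.31 (0.18 to 0.46), beside the median of -0.66 of the 4 basal keratins. Among the 10 markers below 0, Dsc3 was lowest (-1.32, -1.96 to -0.80), on 39 against 83 reads. Dsg3 was next (-0.69, -0.86 to -0.53). The basal keratin sum over the sum of the 20 markers was 0.279 with PBS, 0.303 with BuOE, 0.172 with PBS and radiation and 0.295 with BuOE and radiation. Cd44 alone gave 827, 800, 715 and 605 CPM of the marker sum in these libraries. These quotients therefore depend on Cd44, and they were not computed without it, so no order of the libraries is read from them. In the BuOE arm 13 of 20 basal markers were lower after radiation (median -0.23), among them Trp63 (-0.64, -0.75 to -0.53). Ngfr, a basal cell marker that Schwann cells also carry, had the highest ratio of the list in the PBS arm (1.60) and the lowest in the BuOE arm (-1.84).

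Desmosomes anchor keratin filaments at the cell border. The 14 desmosome and linker genes, of which Dsg3 and Dsc3 are also basal markers, summed to 3659, 4490.1, 3370.5 and 3550.2 CPM. With BuOE, 12 of 14 were higher without radiation (median 0.50) and 10 of 14 after it (median 0.24). Dsp, which encodes desmoplakin, the protein that ties keratins to the desmosome, was at 366, 769, 327 and 464 CPM. The linker genes Plec (-0.25 with BuOE without radiation) and Dst (0.59) were the most abundant of the list. In the BuOE arm 11 of 14 were lower after radiation (median -0.41), with Dsg3 lowest (-1.82).

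**Figure D4:**
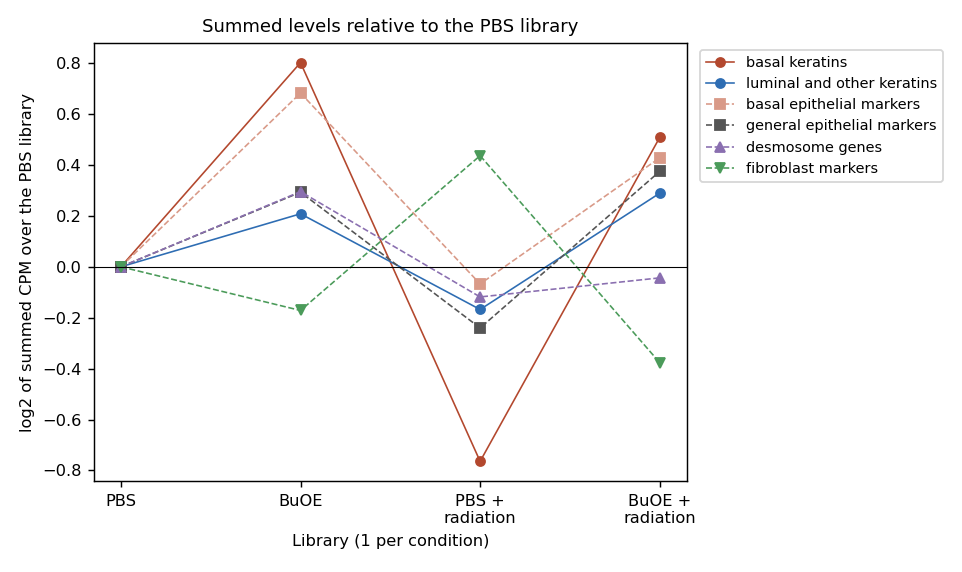
Log2 of the summed CPM of 6 gene lists (basal keratins, luminal and other keratins, basal epithelial, general epithelial, desmosome and fibroblast genes) over the value in the PBS library, for 4 libraries. The lines join points of a list and mark no order in time. The basal keratins (red) are at -0.76 in the irradiated PBS library, where the basal epithelial markers (pink) lie near 0 and the fibroblast markers (green) above it.

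Epithelia other than prostate could also supply Krt7, Krt8, Krt18 and Krt19. Of 12 urothelial markers 10 had a mean of at least 1 CPM, and the list summed to 69.2, 105, 88.4 and 129.6 CPM in the order PBS, BuOE, irradiated PBS and irradiated BuOE. Gata3, which basal cells also express, gave 28.6 to 58.1 CPM of this, and the uroplakin genes, which define urothelium, were present at low levels. Upk1a was at 6.51 CPM with PBS, 10.8 with BuOE, 15.2 with PBS and radiation and 14.0 with BuOE and radiation, and Upk1b was at 6.44, 6.56, 11.5 and 9.55 CPM. Both were higher in the irradiated libraries of both arms, by 1.22 and 0.84 on the log2 scale in the PBS arm and by 0.38 and 0.54 in the BuOE arm. The other uroplakin genes of the list did not keep 1 sign. Radiation ratios in the PBS and BuOE arms were 0.66 and -0.59 for Upk2 (0.658 to 1.49 CPM) and -0.61 and 0.82 for Upk3bl (0.758 to 2.39 CPM). For Upk3a, which stayed between 0.206 and 0.758 CPM, they were 1.02 and -1.12. The protocol in the labels covers prostates and bladders, and these libraries are labelled prostate. The 12 mesothelial markers summed to 135, 110.1, 149 and 112 CPM, with Msln between 14.0 and 15.8 CPM, and 7 of the 10 members of at least 1 CPM were lower in each BuOE comparison. The 20 luminal epithelial markers summed to 1867, 2284, 1681 and 2487 CPM. With BuOE, 16 of them were higher without radiation (median 0.66, 7 at least 2-fold) and 17 after it (median 0.57, 7 at least 2-fold). Among all genes, 8.72% and 3.81% were at least 2-fold higher in these comparisons. Cldn4, the most abundant, was at 506, 847, 602 and 1438 CPM, whereas Sbp was at 757, 428, 439 and 12.8 CPM. The 20 squamous and cornification genes, Krt6a among them, summed to 247, 453, 236 and 1064 CPM, of which the cornified envelope gene Sprr1a made up 907 CPM in the irradiated BuOE library, while Krt1 and Krt10, the keratins of cornifying cells, stayed at or below 1.07 CPM. The part of these cell types in the keratin levels was not tested.

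Other filament and stromal genes moved in other ways between the same libraries. Vim was lower with BuOE without radiation (-0.72, -0.74 to -0.71) and after it (-0.47, -0.48 to -0.45), and 6 of the 11 non-keratin filament genes were higher without radiation and 3 after it. The 9 smooth muscle markers summed to 1307, 737, 1511 and 958 CPM. Their sum was lower with BuOE, led by the actin gene Acta2 (782, 308, 845 and 298 CPM), while 5 of the 9 were higher in each BuOE comparison. The 10 neuronal markers summed to 118, 773, 246 and 91.5 CPM, highest in the BuOE library. Fibroblast markers, with the sums given above, were highest in the irradiated PBS library. All 4 basal keratins were lowest there, Krt15 by less than its counting error. The part of these cells in the keratin levels was not tested.

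Genes with the pattern most like that of Krt5 and Krt8 were found by the root mean square difference of mean-centred log2 CPM over the 4 libraries, among 9545 genes averaging 10 CPM or more, with unnamed gene models, pseudogenes, ribosomal genes and small RNAs left out. Nearest to Krt5 among the other members was Krt14 (0.18), and outside them Sall3 (0.19), Cp (0.22), Anxa8 (0.22), Enpp2 (0.24) and Mkx (0.25). Cp, which encodes ceruloplasmin, was at 128, 182, 62.2 and 99.8 CPM in the order used above. Nearest to Krt8 were Plin3 (0.0150), Btbd11 (0.0165), Nr2c2ap (0.0237), Gps2 (0.0244) and Ccdc85c (0.0264), and among the members Krt19 (0.20), while its partner Krt18 was further away (0.41). With 4 points per gene many genes can lie close, and the distances are a description.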

How the data were processed

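Bulk RNA-seq libraries of cultured prostate cells were used, 1 per condition. The values the authors deposited are raw counts of reads per gene, by their whole numbers and unequal totals. The submitters' processing notes list featureCounts, edgeR 4.2.2, Salmon 1.4.0, FastQC and Trim Galore 0.6.4, giving none a role, and the build GRCm39. Settings for strand and for reads with several matches are not given in the sources used here. Symbols and transcript lengths were joined by Ensembl ID from GENCODE M21 (GRCm38), and 4623 of 56748 IDs had no symbol.

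TMM factors came from edgeR 4.0.16 in R 4.3.3. The filter kept genes averaging 1 CPM or more, and ratios used a prior count of 2. Intervals are exact binomial intervals of 2 counts given the scaled totals. They cover counting error only. The additive model was fitted with edgeR, and with DESeq2 (1.42.0) and limma-voom (3.58.1) as alternatives. Ratios were run on counts simulated with counting error only, for radiation in the PBS arm with 14365 genes: 95.2% of intervals held the true value. The simulation held no variation between libraries or animals, so it checks the calculation and cannot show how far replicates would differ.

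The keratins and the 13 gene lists were chosen with earlier results of these data known. Named genes are the keratins, other keratins of at least 1 CPM, each list's 2 most expressed, highest, lowest and defining members, and the genes most like Krt5 and Krt8. Some list members the rule names are not described, and Itgb4, Dsp, Krt1 and Krt10 were added after their values were seen.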

Additional observations from a re-analysis of the deposited data

Results flagged for a closer look

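The sign of 3 ratios differed between the arms with counting intervals that exclude 0 in both. The radiation ratio of Krt17 was -0.44 in the PBS arm and 0.26 in the BuOE arm, a difference of 0.69 (counting SE 0.03). The BuOE ratio of Krt19 was -0.20 without radiation and 0.17 after it, a difference of 0.37 (counting SE 0.02). The radiation ratio of the summed luminal and other keratins was -0.17 in the PBS arm and 0.08 in the BuOE arm, a difference of 0.25 (counting SE 0.01), and its sign in the BuOE arm turned with library size as the only scaling (-0.031). None of these differences was tested, since each condition has 1 library.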

How the results depend on the processing

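A set of 4 scalings besides TMM (DESeq2 size factors, library size alone, upper-quartile factors and a total without mitochondrially encoded genes, the last added after seeing the data) and a prior count of 0.5 were applied to the 4 ratios of each keratin and of both sums. Of 220 such values, 162 stayed inside the counting interval, 57 moved outside it by at most 0.14 with the same sign, and 1 reversed: the summed luminal keratins for radiation in the BuOE arm were at -0.031 with library size alone. That scaling moved the median of all genes to -0.14 in that comparison and to -0.10 for BuOE after radiation. The counts of keratins changed 2-fold were the same under all scalings, both filters and the smaller prior. With a limit of 1.5-fold, 3 and 1 keratins were lower with radiation in the PBS and BuOE arms, and 5 and 7 were higher with BuOE without and after radiation.

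The basal share, in the order PBS, BuOE, irradiated PBS and irradiated BuOE, was 16.3%, 23.4%, 10.8% and 16.6% without Krt17, 27.2%, 39.0%, 23.5% and 38.2% without Krt18, and 22.8%, 31.5%, 16.6% and 26.8% with the length of all exons merged (added after seeing the data). Without length correction it was 22.0%, 29.9% and 24.7% in all but the irradiated PBS library, which stayed inside its interval. The order of the 4 libraries was the same in each case. The ratio of type I to type II chains was 1.33, 1.30, 1.31 and 1.39 without length correction, and 1.82 and 2.35 with merged exons in the PBS and irradiated BuOE libraries. DESeq2 called 1 keratin for radiation and 6 for BuOE, and edgeR without filter 1 for BuOE, where edgeR with the filter called 0. No replicate can be left out, and no paired analysis was possible because each condition has 1 library.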
